A study of Mus musculus with 3 samples.

Results

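Stress keratins and wound keratinocyte genes were followed in mouse keratinocytes: the type II keratins Krt6a and Krt6b, the type I keratins Krt16 and Krt17, the small proline-rich genes Sprr1a and Sprr1b, and Defb6, Ifitm3, Anxa8 and Cst6. These 10 genes of the 32285 in the deposited matrices were chosen by symbol. Their transcripts, counted as unique molecular identifiers (UMIs), were summed per library over 2 classes of keratinocyte and are given as counts per 1000000 UMIs of that class (CPM). A basal keratinocyte held at least 10 UMIs of Krt14 and Krt5 together, with Krt1 and Krt10 together under 20% of that number. A suprabasal keratinocyte held more Krt1 and Krt10 than Krt14 and Krt5, and at least 10 UMIs of the former. Either class held at most 1 UMI of Ptprc and Tyrobp, which mark immune cells.

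The libraries came from dorsal skin of C57Bl/6 males, 8 weeks old and in telogen, 1 library for each of 3 groups. WT_Ctrl was wild-type skin without UVB, WT_UV was wild-type skin after 3 exposures to UVB, and RP_UV was skin of Rosa26-rtTA, Tre-Ptgs2 (RP) mice after 3 exposures. In RP mice doxycycline induces rat Ptgs2, the gene of the prostaglandin-forming enzyme Cox-2, in the whole body, and doxycycline treatment of the wild-type animals of these libraries is not given in the sources used here. There was no RP library without UVB, so the effect of the transgene alone and its effect under UVB cannot be told apart. The cells had passed a CD45+ bead enrichment for immune cells, so the keratinocytes were those carried through it, and their number does not measure the epidermis. The labels name 1 flow cell for WT_Ctrl together with RP_UV and a different one for WT_UV, so for every comparison with WT_UV the group and the sequencing run cannot be told apart.

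After the cell limits of the study, 5309, 5225 and 6070 cells remained in WT_Ctrl, WT_UV and RP_UV. Of these, 688, 240 and 762 were basal and 364, 208 and 170 were suprabasal. The median basal cell held 5926, 15229 and 6764 UMIs, and the median suprabasal cell 7039, 3148 and 5032. The study allowed up to 6000 genes per cell in WT_UV and 4000 in the other libraries. Between 8 and 11 cell barcodes were shared by any pair of libraries. All 10 keratinocyte markers outside the rule, Trp63 and Krtdap among them, were detected in both classes of every library. With 1 library a group there was no replicate and no test, and the intervals in parentheses are exact 95% intervals that cover counting error only.

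Keratinocytes of resting epidermis build their cytoskeleton from Krt5 and Krt14 in the basal layer and from Krt1 and Krt10 above it. After wounding, irradiation or inflammation they add Krt6a, Krt6b, Krt16 and Krt17, which are otherwise found mainly in hair follicles, glands and other appendages. The SPRR proteins are cross-linked into the cornified envelope, Defb6 is a beta-defensin with antimicrobial activity, Cst6 (cystatin E/M) inhibits cysteine proteases of the cornifying layer, Ifitm3 restricts virus entry and is interferon-induced, and Anxa8 is a membrane-binding annexin.

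AP-1, the Fos and Jun family of stress-responsive factors, is long known to act on SPRR1 promoters, so the upstream sequences of this gene pair are shown. Upstream sequences of RefSeq (build GRCm38.p6, which is mm10) matched 5 of the 10 genes, Sprr1a, Sprr1b, Defb6, Ifitm3 and Anxa8, and not Krt6a, Krt6b, Krt16, Krt17 or Cst6. The windows hold the 250 bases before the transcript start, written 5′ to 3′ on the strand of the gene (minus for both), with matches to the AP-1 motif TGANTCA in capitals. Sprr1a lies at chr3:92483954-92485881 and its window at chr3:92485882-92486131, and Sprr1b lies at chr3:92436808-92438817 and its window at chr3:92438780-92439029. The range of a gene spans all its RefSeq transcripts, and the start used for Sprr1b lies inside its range, so that 38 bases of that window fall within it.

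Sprr1a: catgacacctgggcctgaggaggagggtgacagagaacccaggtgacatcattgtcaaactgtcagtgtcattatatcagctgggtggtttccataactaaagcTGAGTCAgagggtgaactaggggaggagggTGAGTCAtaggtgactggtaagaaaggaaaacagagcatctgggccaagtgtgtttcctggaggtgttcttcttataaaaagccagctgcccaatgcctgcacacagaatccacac
Sprr1b: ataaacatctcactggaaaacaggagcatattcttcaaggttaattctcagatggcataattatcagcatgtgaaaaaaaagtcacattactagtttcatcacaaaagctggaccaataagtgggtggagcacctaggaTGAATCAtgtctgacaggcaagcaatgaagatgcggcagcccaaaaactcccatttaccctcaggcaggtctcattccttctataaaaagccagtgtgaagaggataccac

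The search covered both strands, and TGANTCA reads the same on both except at its middle base. The window of Sprr1a held 2 matches, starting 146 and 116 bases before the transcript start, and that of Sprr1b held 1, starting 111 bases before it. Ifitm3 had 1 match, 105 bases before its start, and the windows of Defb6 and Anxa8 had none. Of 32851 upstream windows of the same length, 2217 (6.749%) held the motif. TATAAA stood 43 bases before the start of Sprr1a and 30 before that of Sprr1b, and was present in 12.37% of windows. TTCNNNGAA, the core of STAT binding sites, was in none of the 5 windows and in 7.02% of all windows. These matches describe letters only.

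In basal cells 8 of the 10 genes were at least 2-fold higher in WT_UV than in WT_Ctrl (ratio with a pseudocount of 1 CPM) and none was 2-fold lower. Among 11089 genes with at least 30 UMIs in basal cells of the 3 libraries, 3.36% were 2-fold higher and 3.35% 2-fold lower in that comparison. The median log2 ratio was 2.60 for the 10 genes and -0.13 for all genes. In RP_UV against WT_Ctrl 7 were higher and none lower, with 7.2% and 9.96% of all genes, and the medians were 1.72 and -0.08. The 2 irradiated libraries differed less in basal cells: 1 gene was higher in RP_UV than in WT_UV (Krt6a) and 1 lower (Defb6), against 5.38% and 5.68% of all genes. The count of 1 higher gene rested on 1 cell of WT_UV, described next. Without the cell with the most UMIs of each gene in each library, 4 were higher in RP_UV: Krt6a, Krt6b, Krt16 and Sprr1b.

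In suprabasal cells 7 genes were 2-fold higher and none lower in WT_UV than in WT_Ctrl, against 2.97% and 6.3% of 8291 genes. Without the highest cell of each library, Defb6 and Cst6 among them fell to 1.13-fold and 1.27-fold. A further step separated the irradiated libraries there: 7 genes were higher and none lower in RP_UV than in WT_UV, against 4.57% and 4.38% of all genes, with a median log2 ratio of 1.92 and 0.06 over all. As a mean over cells 5 were higher, and Krt6b, Krt16 and Sprr1b were then within 2-fold. In RP_UV against WT_Ctrl 8 were higher and none lower, against 5.05% and 9.37%. The 3 comparisons share libraries and are not independent of one another.

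**Figure D1:**
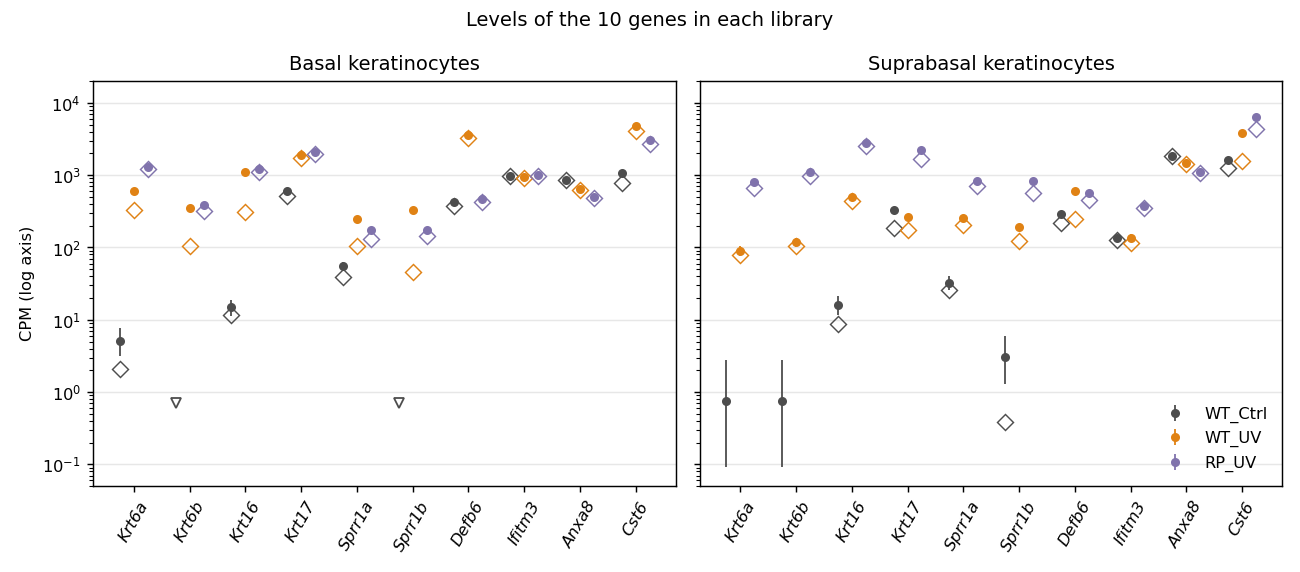
CPM (log axis) of the 10 genes in basal (left) and suprabasal keratinocytes (right), 1 filled point per library with its exact 95% Poisson interval; open diamonds leave out the cell with the most UMIs of the gene (none is drawn where this leaves no UMI), and open triangles mark the level that 3 counts would give where no UMI was found. WT_Ctrl is the lowest library for Krt6a, Krt6b, Krt16, Sprr1a, Sprr1b and Cst6 in both classes, while Ifitm3 in basal cells and Anxa8 in either class stay within 2-fold.

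A single basal cell of WT_UV held a large share of the UMIs of several genes. It had 96360 UMIs and 4751 genes, so it passed only under the higher gene limit of that library, and its 5361 UMIs of Krt6a, Krt6b, Krt16 and Krt17 were 35.4% of all UMIs of these 4 genes in the class. It carried 86.5% of the Sprr1b, 72.8% of the Krt16, 70.9% of the Krt6b, 58.6% of the Sprr1a and 46.9% of the Krt6a UMIs of WT_UV basal cells. Whether it was 1 cell or several in a droplet was not tested. For these genes the basal level of WT_UV is therefore given with and without the cell that holds most of the gene, a choice made after the data were seen.

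Krt6a (ENSMUSG00000058354, chr15:101689928-101694305) encodes a type II keratin of wound and appendage epithelium. Its basal level was 5.12 (3.21 to 7.75) CPM in WT_Ctrl, 612 (587 to 637) in WT_UV and 1298 (1269 to 1327) in RP_UV. The 3 libraries stood in that order with no overlap of intervals. WT_UV was 119.6-fold (78.8 to 191) above WT_Ctrl, and RP_UV was 2.12-fold (2.02 to 2.22) above WT_UV. Without the highest cell of each library the basal levels were 2.10, 333 and 1233, and RP_UV was 3.70-fold (3.48 to 3.93) above WT_UV. In suprabasal cells WT_Ctrl had 2 UMIs of Krt6a in all, 0.761 (0.0921 to 2.75) CPM, WT_UV had 88.5 (75.4 to 103) and RP_UV 810.3 (757 to 866). Suprabasal RP_UV was 9.16-fold (7.74 to 10.9) above WT_UV in the sum over cells. With the same weight for each cell the log2 ratio of RP_UV over WT_UV was 1.05 in place of 3.18 in suprabasal cells and 1.27 in place of 1.08 in basal cells, so which class had the wider step depended on the weighting.

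Krt6b (ENSMUSG00000023041, chr15:101676023-101680293) is the neighbouring gene, whose product also pairs with Krt16 and Krt17. No UMI of it was found among 4300380 UMIs of basal WT_Ctrl cells, which allows a level of up to 0.698 CPM. Basal WT_UV held 348 (329 to 367) and RP_UV 390.3 (375 to 407), at least 498-fold and 559-fold higher than 3 counts in WT_Ctrl. Without the highest cell the level was 104 in WT_UV, at least 149-fold above the same floor, and 316 in RP_UV. Only 7 of 240 basal cells of WT_UV held any Krt6b, against 87 of 762 in RP_UV. In suprabasal cells the levels were 0.761 (0.0921 to 2.75) in WT_Ctrl (2 UMIs), 118 (103 to 135) in WT_UV and 1112 (1049.9 to 1178) in RP_UV. The log2 ratio of RP_UV over WT_UV was 3.23 there, but 0.35, within 2-fold, when each suprabasal cell had the same weight.

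The paired genes did not keep 1 ratio between classes. In RP_UV the UMIs of Krt6a over those of Krt6b were 3.32 (3.17 to 3.48) in basal and 0.728 (0.666 to 0.796) in suprabasal cells, so Krt6b was the larger of the pair above the basal layer. WT_UV had 1.76 (1.65 to 1.89) and 0.751 (0.609 to 0.925). The cell with the most stress keratin UMIs was then left out of each library. The basal ratio was 3.21 (2.86 to 3.61) in WT_UV and 3.90 (3.70 to 4.10) in RP_UV. The suprabasal ratios stayed below 1, at 0.744 and 0.621 in the same order. Without cells of a low mitochondrial share, treated below, Krt6a and not Krt6b was the larger of the pair in suprabasal WT_UV. Each molecule is counted once near its 3′ end, so these levels need no correction for length. The transcripts of Krt6a and Krt6b share a run of 280 bases, and no 30-base word of the last 500 bases of one occurs in those of the other. Krt16 and Krt17, compared below, share a run of 55 bases. Of the 30-base words in the last 500 bases of each, 5.52% occur in the other. The part of this in their ratio was not tested.

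Krt16 (ENSMUSG00000053797, chr11:100246091-100248902) encodes the type I partner of the Krt6 proteins in stressed epidermis. Its basal level was 14.9 (11.5 to 19.0) in WT_Ctrl, 1104 (1071 to 1138) in WT_UV and 1204 (1176 to 1232) in RP_UV, where the irradiated libraries lay close together. WT_UV was 74.2-fold (58.0 to 96.5) above WT_Ctrl. Without the highest cell of each library WT_UV stood at 308, 26.5-fold (19.9 to 35.9) above WT_Ctrl. RP_UV with 1092 was then 3.54-fold (3.33 to 3.78) above WT_UV instead of 1.09-fold (1.05 to 1.13). In suprabasal cells Krt16 was the highest of the stress keratins in both irradiated libraries, with 496 (464 to 529) in WT_UV and 2815 (2715 to 2918) in RP_UV against 16.0 (11.5 to 21.6) in WT_Ctrl. RP_UV was 5.67-fold (5.27 to 6.12) above WT_UV in the sum over cells. When each suprabasal cell had the same weight, the log2 ratio was -0.027 in place of 2.50.

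Krt17 (ENSMUSG00000035557, chr11:100256215-100261029), a type I keratin of the follicle and of wounds, was the only stress keratin with a sizeable level in unirradiated skin. The basal level was 596 (573 to 619) in WT_Ctrl, 1909 (1866 to 1954) in WT_UV and 2117 (2080.0 to 2154) in RP_UV. WT_UV was 3.21-fold (3.06 to 3.35) above WT_Ctrl, while RP_UV was 1.11-fold (1.08 to 1.14) above WT_UV. In suprabasal cells the pattern was different, with 326 (304 to 348) in WT_Ctrl, 260.0 (237 to 284) in WT_UV and 2204 (2116 to 2295) in RP_UV. WT_UV lay below WT_Ctrl there, and RP_UV was 8.48-fold (7.68 to 9.37) above WT_UV. The suprabasal WT_Ctrl value drew 42.6% of its UMIs from 1 cell. Without the highest cell of each library the ratio of WT_UV to WT_Ctrl was 0.941 (0.815 to 1.08), an interval that holds 1. The direction also turned: the log2 ratio of WT_UV over WT_Ctrl, -0.32 as summed, was 0.63 with a limit of 4000 genes in every library, 0.99 as a mean over cells, 1.09 without follicle-marked cells and 1.31 with cells thinned before classification, while it was -2.40 without cells of a low mitochondrial share. Krt17 outnumbered Krt16 by 40.0 to 1 in basal WT_Ctrl cells, and by 1.73 (1.66 to 1.80) and 1.76 (1.71 to 1.81) in basal WT_UV and RP_UV. Without the cell with the most stress keratin UMIs in each library these ratios were 34.0, 6.13 (5.76 to 6.53) and 1.92 (1.86 to 1.98), so the closeness of the irradiated libraries rested on that cell of WT_UV.

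Sprr1a (ENSMUSG00000050359) and Sprr1b (ENSMUSG00000048455) encode envelope precursors. Basal Sprr1a was 55.8 (49.0 to 63.3) in WT_Ctrl, 248 (233 to 265) in WT_UV and 173 (162 to 184) in RP_UV. Sprr1b had 0 UMIs in basal WT_Ctrl cells, 328 (310.2 to 347) in WT_UV and 173 (162 to 184) in RP_UV, at least 470.4-fold and 248-fold higher than 3 counts. For Sprr1a the log2 ratio of WT_UV over WT_Ctrl was 2.13, but 0.037 when basal cells with any UMI of Ptprc or Tyrobp were left out. Both genes stood lower in RP_UV than in WT_UV in basal cells. Leaving out the highest cell turned that order round for each of them: Sprr1b was then 45.4 in WT_UV and 142 in RP_UV, and Sprr1a 105 and 131.

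Suprabasal cells gave the same order for both SPRR1 genes with and without the highest cell. Sprr1a was 32.3 (25.8 to 40.0) in WT_Ctrl, 252 (229 to 276) in WT_UV and 822 (768 to 878) in RP_UV. Sprr1b was 3.04 (1.31 to 5.99) (8 UMIs), 189 (169.6 to 209.8) and 837 (783 to 894) in the same order. RP_UV was 3.26-fold (2.91 to 3.66) above WT_UV for Sprr1a and 4.43-fold (3.91 to 5.03) for Sprr1b. With equal weight for each cell the log2 ratio of Sprr1b was 0.045 in place of 2.14, and that of Sprr1a 1.59 in place of 1.70.

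Defb6 (ENSMUSG00000050756, chr8:19225478-19228209) had its highest basal level in WT_UV, with the other libraries close together. It was 428 (409 to 448) in WT_Ctrl, 3592 (3532 to 3652) in WT_UV and 466 (448 to 483) in RP_UV. WT_UV exceeded WT_Ctrl by 8.39-fold (7.99 to 8.81) and RP_UV by 7.71-fold (7.40 to 8.04), whereas RP_UV and WT_Ctrl differed by 1.09-fold (1.02 to 1.15). The UMIs of WT_UV were spread over 104 cells, of which 12 held at least 50% of them. Suprabasal levels were 290.1 (269.9 to 311), 608 (573 to 645) and 563 (519 to 609.8), but 1 cell of 25065 UMIs held 60.1% of the suprabasal WT_UV count, and without the highest cells the levels were 217, 246 and 454.

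Cst6 (ENSMUSG00000024846, chr19:5344705-5349574) was the most abundant gene of the set in the irradiated libraries. Basal levels were 1082 (1051 to 1114) in WT_Ctrl, 4743 (4674 to 4812) in WT_UV and 3065 (3021 to 3109.9) in RP_UV. WT_UV was 4.38-fold (4.24 to 4.53) above WT_Ctrl, and RP_UV lay between them. In suprabasal cells RP_UV was the highest with 6268 (6118 to 6420.5), over 3770.2 (3682 to 3859.9) in WT_UV and 1605 (1557 to 1654) in WT_Ctrl. The same cell of 25065 UMIs held 58.4% of the suprabasal WT_UV count. Single cells also held 22.3% of that of WT_Ctrl and 32.2% of that of RP_UV. Without the highest cell of each library the suprabasal levels were 1250 in WT_Ctrl, 1590 in WT_UV and 4278 in RP_UV. WT_UV was then 1.27-fold (1.21 to 1.34) above WT_Ctrl and not 2.35-fold (2.26 to 2.44). If only the WT_UV cell is left out, 1590 in WT_UV stands beside 1605 in WT_Ctrl. The suprabasal log2 ratio of RP_UV over WT_UV was 0.73, and -0.076 with a limit of 4000 genes in every library. That of RP_UV over WT_Ctrl was 1.97, and 0.88 with no floor on Krt1 and Krt10.

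Ifitm3 (ENSMUSG00000025492, chr7:141009590-141010744) and Anxa8 (ENSMUSG00000021950, chr14:34085979-34100571) were the members that stayed within 2-fold in every basal comparison. Ifitm3 was 975 (946 to 1005), 930.0 (899.7 to 961) and 991 (966 to 1017) in basal WT_Ctrl, WT_UV and RP_UV. In suprabasal cells it was 136 (122 to 151), 136 (119 to 154) and 378 (342 to 417), so that only RP_UV stood apart, 2.79-fold (2.38 to 3.28) above WT_UV. Immune cells express Ifitm3 widely, and the summed immune markers of suprabasal cells were 102, 189 and 474 CPM in the same order. S100a8 and S100a9, also listed below as wound-edge genes, gave 12.5 and 11.9 CPM of that sum in WT_UV. In RP_UV they gave 123 and 110.1. The part of immune RNA in the result was not tested. Anxa8 was lower in both irradiated libraries: 851 (823 to 879), 639 (614 to 665) and 493 (475 to 511) in basal cells and 1824 (1772 to 1876), 1458 (1403 to 1514) and 1089 (1027 to 1154) in suprabasal cells. RP_UV was 1.72-fold (1.64 to 1.81) below WT_Ctrl in basal and 1.67-fold (1.57 to 1.79) below it in suprabasal cells.

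**Figure D2:**
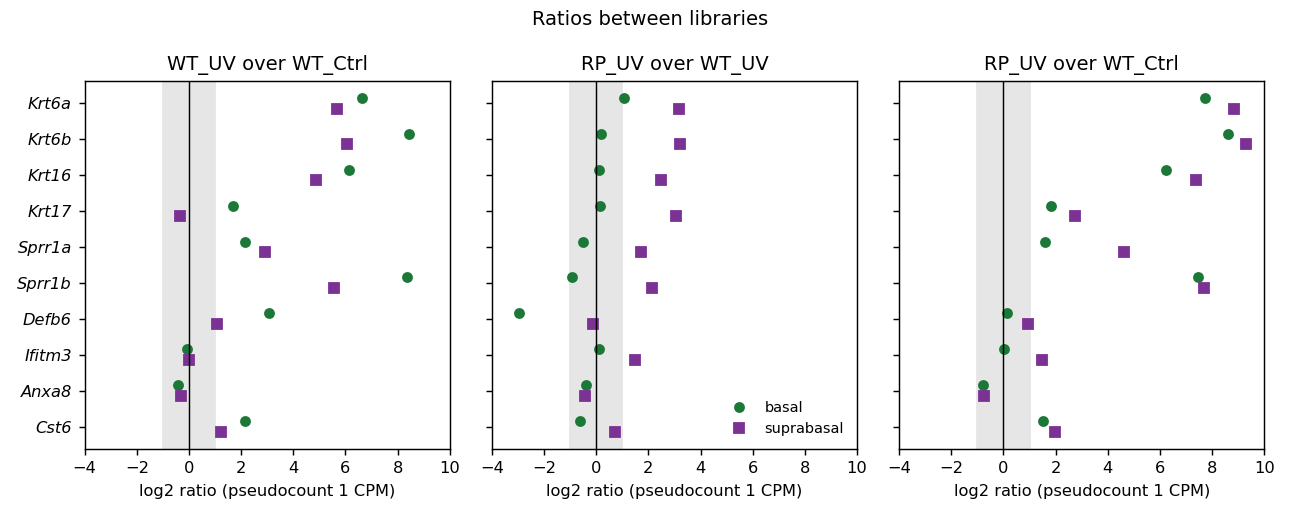
log2 ratios of the 10 genes between libraries (CPM with a pseudocount of 1), with basal cells as circles and suprabasal cells as squares and the band within 2-fold shaded. Between the irradiated libraries, all 4 stress keratins, both SPRR1 genes and Ifitm3 have suprabasal points right of the band, while among basal points Krt6a alone lies just right of it and Defb6 left of it.

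Sums weigh deep cells most, so the share of cells with a UMI was taken after thinning each cell to 2000 UMIs, which left out 35, 25 and 112 basal and 51, 71 and 54 suprabasal cells of WT_Ctrl, WT_UV and RP_UV. Krt6a was found in 0.766% (0.249 to 1.78) of basal WT_Ctrl cells, 8.37% (5.04 to 12.9) of WT_UV and 32.5% (28.9 to 36.2) of RP_UV. For Krt16 the basal shares were 1.38% (0.632 to 2.60), 6.98% (3.96 to 11.2) and 16.5% (13.7 to 19.5), and for Krt17 they were 18.4% (15.5 to 21.6), 34.0% (27.7 to 40.7) and 45.1% (41.2 to 49.0). By this measure RP_UV stood above WT_UV for these 3 keratins, also where the summed levels were close. Krt6b was in 0 of 653 basal WT_Ctrl cells, which allows up to 0.459% of cells with a UMI at this depth (3 counts of the total), in 1.86% (0.509 to 4.69) of WT_UV and in 7.69% (5.76 to 10.0) of RP_UV. Without thinning the basal shares of Krt6a were 1.31%, 16.2% and 42.7%.

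The suprabasal shares of Krt6a were 0 of 313 cells in WT_Ctrl, which allows up to 0.958% of cells with a UMI by the same count, 8.03% (4.08 to 13.9) in WT_UV and 31.9% (23.6 to 41.2) in RP_UV. The shares of Krt16 were 0.958% (0.198 to 2.78), 14.6% (9.15 to 21.6) and 38.8% (29.9 to 48.3), and those of Sprr1a 2.88% (1.32 to 5.39), 14.6% (9.15 to 21.6) and 33.6% (25.1 to 43.0), in the same order of libraries. The suprabasal intervals of WT_UV and RP_UV overlapped for Sprr1b, with 16.1% (10.3 to 23.3) and 23.3% (15.9 to 32.0), and for Krt17, with 12.4% (7.40 to 19.1) and 26.7% (18.9 to 35.7). Unthinned suprabasal shares of Krt6a were 0.275%, 17.8% and 41.8%.

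Immune cells, with at least 5 UMIs of Ptprc and Tyrobp, do not make keratins, and keratin UMIs in them are read as background. At the same 2000 UMIs, Krt6a was found in 0.0428%, 0.357% and 2.58% of them in WT_Ctrl, WT_UV and RP_UV, and Krt17 in 0.642%, 1.63% and 3.56%. The keratinocyte shares of Krt6a were above these in every library but suprabasal WT_Ctrl, while basal Krt16 of WT_Ctrl (1.38%) compares with 0.0428% in immune cells. This background was highest in RP_UV for both genes. Ifitm3 was in 53.0%, 38.7% and 70.9% of immune cells and cannot serve this way.

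**Figure D3:**
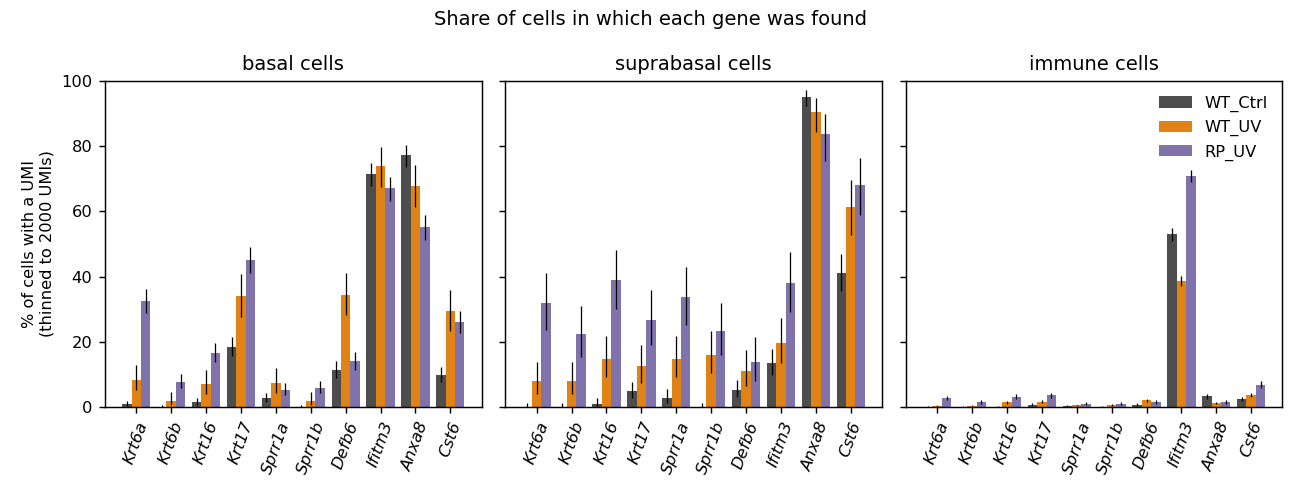
Share of cells (%) with at least 1 UMI of each gene after thinning every cell to 2000 UMIs, in basal, suprabasal and immune cells; bars are single libraries and lines are exact 95% binomial intervals. Krt6a is in 32.5% of basal and 31.9% of suprabasal cells of RP_UV and in 2.58% of its immune cells.

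The 4 stress keratins together were found in 19.4% (16.5 to 22.7) of basal cells of WT_Ctrl, 38.6% (32.1 to 45.5) of WT_UV and 60.9% (57.1 to 64.7) of RP_UV, and in 4.79% (2.71 to 7.78), 24.1% (17.2 to 32.1) and 51.7% (42.3 to 61.1) of suprabasal cells. Immune cells, as background, gave 0.685%, 3.39% and 9.95% in the same order, the highest in RP_UV. Cells with 10 or more of their 2000 UMIs from these genes made up 2.76% (1.64 to 4.32), 12.1% (8.05 to 17.2) and 18.8% (15.8 to 22.0) of basal cells. They made up 1.92% (0.707 to 4.13), 8.76% (4.61 to 14.8) and 31.0% (22.8 to 40.3) of suprabasal cells. Expression was uneven among cells in every library. The top 10% of basal cells held 91.7%, 83.9% and 71.4% of the stress keratin UMIs of WT_Ctrl, WT_UV and RP_UV, so the least uneven library was RP_UV. Before thinning, where deep cells weigh most, 24 of 762 basal cells of RP_UV held 50% of the Krt6a UMIs, against 2 of 240 in WT_UV. The cell of 96360 UMIs was 1 of these 2.

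Which genes shared cells was counted at equal depth. In RP_UV basal cells, 85 of 107 cells with Krt16 also held Krt6a, which was in 32.5% of all basal cells. 37 of 50 cells with Krt6b held Krt16, which was in 16.5% of all. Sprr1a was in 26 of 211 basal Krt6a cells and in 5.23% of all. In suprabasal RP_UV cells 23 of 26 Krt6b cells held Krt16, which was in 38.8% of all, and 20 of 37 Krt6a cells held Sprr1a, which was in 33.6% of all. In basal WT_Ctrl cells, with few cells to count, none of 5 Krt6a cells held Krt16, and 6 of 9 Krt16 cells held Krt17, which was in 18.4% of all. All 4 basal WT_UV cells with Krt6b held Krt6a, Krt16, Krt17 and Sprr1b as well. These are counts of cells within 1 library, whose depth was set equal.

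**Figure D4:**
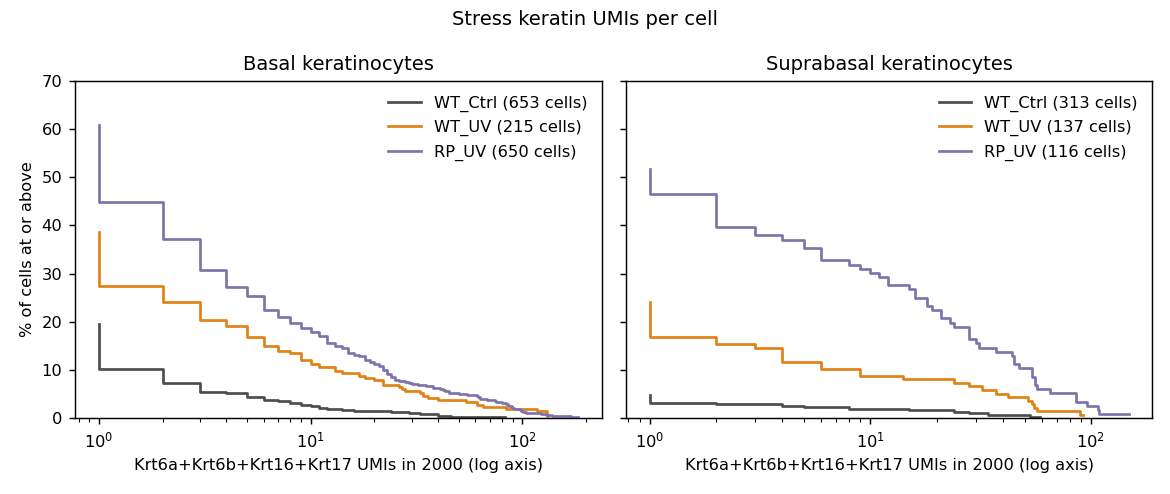
Share of keratinocytes (%) with at least the number of Krt6a, Krt6b, Krt16 and Krt17 UMIs on the x axis (log axis) out of 2000 UMIs per cell, for basal (left) and suprabasal cells (right), 1 line per library. At 1 UMI the lines start at 19.4%, 38.6% and 60.9% of basal and 4.79%, 24.1% and 51.7% of suprabasal cells of WT_Ctrl, WT_UV and RP_UV.

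The basal rule takes in cells of the hair follicle as well as of the epidermis. The 7 hair follicle markers (Krt79, Krt75, Krt24, Sox9, Lhx2, Lgr5 and Sostdc1) summed to 777, 2278 and 1754 CPM in basal cells of WT_Ctrl, WT_UV and RP_UV, with Krt75 at 0 in WT_UV. In suprabasal cells they summed to 275, 505 and 1080.4. Basal cells of at least 2000 UMIs were therefore split, after the data were seen, by whether 1 or more of 2000 UMIs came from these markers. Cells with such a UMI numbered 214 of 653, 107 of 215 and 352 of 650.

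The split divided the 10 genes. Defb6 and Cst6 lay almost wholly in cells with follicle markers: in WT_UV Defb6 was 7299 (7176 to 7423) in them and 53.3 (43.5 to 64.6) in the rest, and Cst6 9526 (9385 to 9667) and 153 (136 to 172). The other 2 libraries had the same side for both genes, for Defb6 1262 and 24.9 in WT_Ctrl and 796 and 19.8 in RP_UV. Krt17 was also higher with follicle markers, 1579 against 115 in WT_Ctrl, 3469 against 410.0 in WT_UV and 2729 against 1246 in RP_UV. In the cells without follicle markers Krt17 stood in the order WT_Ctrl, WT_UV, RP_UV.

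Krt6a, Krt6b, Krt16 and Sprr1b lay on the other side in both irradiated libraries. In RP_UV Krt6a was 2069 (2014 to 2126) without and 682 (654 to 712) with follicle markers, and Krt16 2137 (2081 to 2194) and 467 (443 to 491). In WT_UV Krt16 was 2115 (2050.4 to 2180.5) and 60.6 (49.9 to 72.9), where the cell of 96360 UMIs weighs on the higher value. In WT_Ctrl no Krt6a UMI was found in 439 basal cells without follicle markers, and its 22 UMIs were in cells with them. The difference of Defb6 between WT_Ctrl and WT_UV was present on both sides of the split, at the levels given, and the share of follicle-marked cells differed too. In a sum over the class, more such cells and more RNA in each cannot be told apart. Without cells holding 2 or more follicle-marker UMIs, the basal log2 ratio of Defb6 was 0.27 for WT_UV over WT_Ctrl, in place of 3.06.

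**Figure D5:**
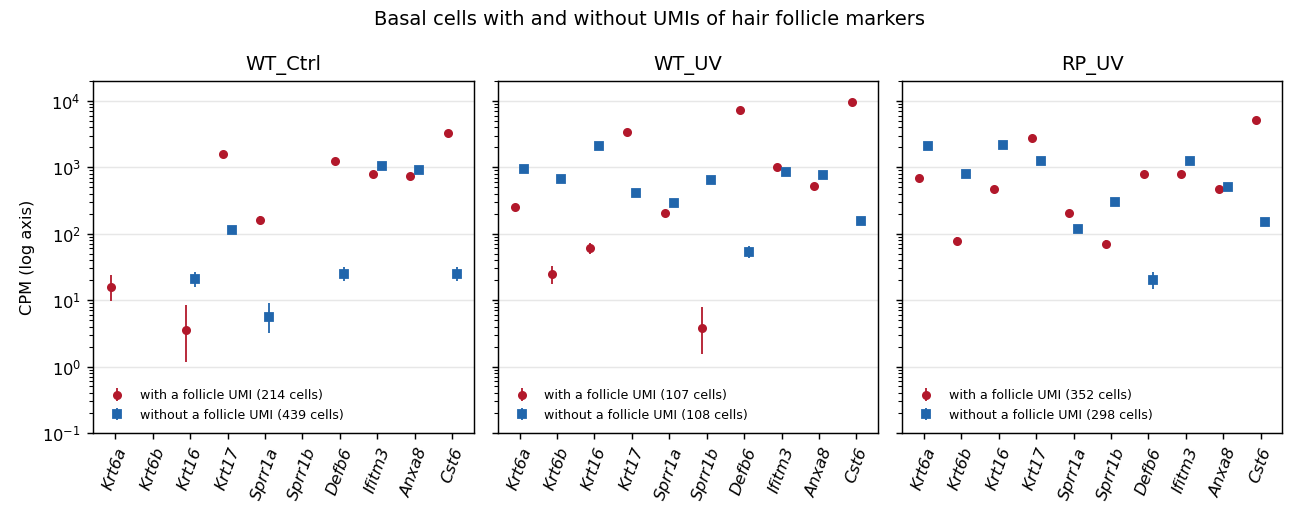
CPM (log axis, exact 95% Poisson intervals) of the 10 genes in basal cells with (circles) and without (squares) a UMI of 7 hair follicle markers, 1 panel per library; genes with no UMI have no point. In all 3 panels Krt17, Defb6 and Cst6 are higher with follicle markers, and in the irradiated panels Krt6a, Krt6b, Krt16 and Sprr1b are higher without them.

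The ratio of the suprabasal to the basal level also moved between libraries. For Krt16 it was 1.07 (0.709 to 1.61) in WT_Ctrl, 0.449 (0.418 to 0.483) in WT_UV and 2.34 (2.24 to 2.44) in RP_UV. Krt6b went from 0.339 (0.292 to 0.391) in WT_UV to 2.85 (2.66 to 3.06) in RP_UV, and Sprr1b from 0.576 (0.510 to 0.649) to 4.84 (4.42 to 5.30). Krt6a stayed higher in basal cells, with 0.145 (0.123 to 0.169) in WT_UV and 0.625 (0.581 to 0.670) in RP_UV. Anxa8 kept nearly 1 ratio throughout, 2.14 (2.05 to 2.24), 2.28 (2.16 to 2.41) and 2.21 (2.06 to 2.36). Sprr1a had 1.01 (0.906 to 1.13) in WT_UV and 4.76 (4.34 to 5.21) in RP_UV, so Krt16, Krt6b, Sprr1a and Sprr1b were more than 2-fold higher in suprabasal than in basal cells of RP_UV, and none of these 4 was in WT_UV. Cst6 went from 0.795 (0.773 to 0.817) in WT_UV to 2.05 (1.99 to 2.10) in RP_UV. Without the highest cell of each gene the suprabasal and basal levels of WT_UV were 439 and 308 CPM for Krt16, 106 and 104 for Krt6b, and 125 and 45.4 for Sprr1b, so that Sprr1b then stood more than 2-fold higher in suprabasal cells of WT_UV too.

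Suprabasal cells of WT_UV stood apart in their mitochondrial share, whose median was 0.0491%, against 2.44% in WT_Ctrl and 1.20% in RP_UV. Cells with a share under 0.5% were 98 of 364, 152 of 208 and 74 of 170 suprabasal and 39 of 688, 66 of 240 and 197 of 762 basal cells. Without them the suprabasal log2 ratio of WT_UV over WT_Ctrl was 1.62 for Krt6b in place of 6.08, 4.12 for Krt6a in place of 5.67, and 4.85 for Sprr1b in place of 5.55. RP_UV over WT_UV was then larger, 7.57 for Krt6b and 4.63 for Krt6a in place of 3.23 and 3.18. Over a WT_Ctrl level near 0, a log2 ratio of 1.62 means that Krt6b of WT_UV was then low too. The pseudocount of 1 CPM therefore weighs on the 7.57, which is not a measured size of the step. The part of the cells with a low mitochondrial share in the levels of suprabasal WT_UV cells, beyond these values, was not tested.

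The other genes were taken from fixed lists, and each list is read against the shares of all genes given above. Of 25 wound-edge genes tested in basal cells, 8 were higher and 1 lower in WT_UV than in WT_Ctrl, 9 were higher and 2 lower in RP_UV than in WT_UV and 10 were higher and 4 lower in RP_UV than in WT_Ctrl. The median log2 ratios of the list were 0.36, 0.19 and 0.15 in the same order, so most of it was not raised 2-fold. The 4 lower genes of the last comparison were Il33, Klf6, Lamb3 and Lama3. The genes described next were picked for the size of their ratios. Stfa1, a stefin-type protease inhibitor, was 3.26, 253 and 426 CPM in WT_Ctrl, WT_UV and RP_UV. S100a9, a subunit of calprotectin, was 0, 16.0 and 41.0. Lcn2, an iron-siderophore binding protein of inflamed epithelium, was 2.56, 5.50 and 169.9, and Slpi, an elastase inhibitor, 1.40, 0 and 19.1. Areg, a ligand of the EGF receptor, was 2.09, 7.08 and 46.4. Ptgs2 counts were 8.37, 6.03 and 548, where RP_UV carries the rat transgene and reads of it may or may not be counted under the mouse gene. In suprabasal cells 5 were higher and 1 lower, 7 were higher and 1 lower and 8 were higher and 3 lower of 21 in the same order, with S100a8, the other subunit of calprotectin, at 0, 12.5 and 123. Neutrophils make S100a8 and S100a9 in large amounts, and both belong to the 7 immune markers, of which 6 were found in WT_Ctrl and 7 in WT_UV and RP_UV in either class. These markers summed to 172, 159 and 194 CPM in basal cells and, as given above, were highest in suprabasal cells of RP_UV. Whether these UMIs came from keratinocytes was not tested.

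Few other small proline-rich genes were measurable, 3 of 12 in basal cells and 2 in suprabasal cells. Sprr2h, also an envelope precursor, had 0 UMIs in WT_Ctrl of either class, 39.3 and 23.6 CPM in basal WT_UV and RP_UV, and 7.06 and 23.5 in suprabasal cells. Basal Sprr2d was 0, 23.9 and 7.09, and Sprr2a3 was 13.7, 27.8 and 39.7.

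Of the terminal differentiation genes tested in basal cells (12), 7 were higher and 0 lower in WT_UV than in WT_Ctrl, 0 were higher and 3 lower in RP_UV than in WT_UV and 7 were higher and 2 lower in RP_UV than in WT_Ctrl. Krtdap, a secreted protein of differentiating keratinocytes, was 124, 1277 and 1493 in basal cells, and Klk7, a serine protease of the cornified layer, 9.30, 102 and 96.2. In suprabasal cells 5 were higher and 0 lower, 4 were higher and 0 lower and 9 were higher and 0 lower of 15. The median log2 ratio of these 15 in RP_UV over WT_UV was 0.18, against 0.06 over all genes. Flg, which encodes filaggrin, was 31.2, 25.5 and 576, and Lor, which encodes the envelope protein loricrin, 88.6, 113 and 694, so both were highest in RP_UV. Ivl, the involucrin gene, was 30.8, 142 and 132.

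Among close keratin relatives, Krt15, a keratin of the resting basal layer and bulge, was lower in both irradiated libraries. Its basal level was 8764, 4068 and 1676 in WT_Ctrl, WT_UV and RP_UV, and 9968, 4509.6 and 1604 in basal cells without follicle markers. Krt79, a keratin of the upper follicle, was 386, 1807 and 1408. Krt14 in suprabasal cells was 482, 1028 and 4176, a gene the class rule itself uses. In all, 2 were higher and 2 lower, 1 was higher and 2 lower and 2 were higher and 3 lower of 8 relatives in basal cells, and 2 were higher and 1 lower, 2 were higher and 0 lower and 3 were higher and 2 lower of 7 in suprabasal cells, in the order WT_UV over WT_Ctrl, RP_UV over WT_UV and RP_UV over WT_Ctrl.

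Cycling genes differed less. None of 8 was 2-fold changed in basal cells between WT_UV and WT_Ctrl or between RP_UV and WT_UV, and 2 were higher in RP_UV than in WT_Ctrl: Birc5, a regulator of chromosome segregation, at 112 against 48.1, and Cdk1, the mitotic kinase, at 101 against 46.0. Of 3 tested in suprabasal cells, Top2a was higher in RP_UV (14.1) than in WT_Ctrl (4.18).

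The genes most like the summed stress keratins over basal cells, by the lowest Spearman correlation of the 3 libraries among 1692 genes, were Sbsn, Aqp3, Dbi, Gsn and Sdc1. Sbsn, a suprabasal secreted protein, had correlations of 0.222, 0.403 and 0.277 in WT_Ctrl, WT_UV and RP_UV, and Aqp3, a water and glycerol channel, 0.206, 0.324 and 0.401. For each of the genes named the lowest correlation was that of WT_Ctrl, so that library set the order. Before thinning, Krt17 gave 2561 of the 2647 stress keratin UMIs of its basal cells. The list therefore mostly describes genes found with Krt17 in unirradiated skin, where Krt17 was higher in follicle-marked cells. The correlations were over 653, 215 and 650 cells of equal depth, and the cells of a library share its preparation. In counts this sparse correlations of this size are weak and are given as a description.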

How the data were processed

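The authors deposited UMI counts for each gene and barcode, made with Cell Ranger 6.1.1 (build mm10 per the labels) and not normalized. Cells passed the limits that the study states: over 200 and under 4000 genes (under 6000 in WT_UV), with mitochondrial UMIs below 10%. No doublet caller was run and none was stated. Classes, the suprabasal floor of 10 UMIs, gene lists and naming rules (from each list at most the 4 with the largest log2 ratio of a comparison) were set with earlier results of these data known. The lower wound-edge genes of RP_UV over WT_Ctrl were named besides that rule. Counts were summed per class and library and divided by the class total. Intervals were exact Poisson for levels, exact conditional binomial for ratios and Clopper-Pearson for shares. Depth was 1062527 to 5926607 UMIs per class and library, and a count of 0 was taken to allow 3 counts. Libraries were the only ones of their groups, so no model was fitted. Shared sequence was read from GENCODE vM39 transcripts. Alternatives covered cell limits, class rules, depth, weighting, denominator and pseudocount (1 or 10 CPM). Ratio calls and intervals were tested on simulated data. Python 3.11.15, numpy 2.4.6, scipy 1.17.1, pandas 2.3.3 and matplotlib 3.10.9 were used. In the deposited tables no column of per-sample values was left out.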

Additional observations from a re-analysis of the deposited data

Results flagged for a closer look

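For 4 genes the ratio between a pair of libraries lay above 1 in one class of keratinocyte and below 1 in the other, with counting intervals on opposite sides. Each is given as the suprabasal log2 ratio minus the basal one, and the difference was not tested, as each group had 1 library. Krt17 in WT_UV over WT_Ctrl gave -2.00, with WT_UV higher in basal and lower in suprabasal cells. In RP_UV over WT_UV, Sprr1b gave 3.06, Sprr1a 2.22 and Cst6 1.36, with RP_UV lower in basal and higher in suprabasal cells. Without the highest cell of each library the basal ratios of RP_UV over WT_UV were 3.12-fold (2.64 to 3.70) for Sprr1b and 1.24-fold (1.10 to 1.40) for Sprr1a, so their opposite directions were lost. Those of Cst6 were 0.660 (0.646 to 0.675) in basal and 2.69 (2.57 to 2.82) in suprabasal cells, and the suprabasal ratio of Krt17 in WT_UV over WT_Ctrl was 0.941 (0.815 to 1.08). With a limit of 4000 genes in every library the suprabasal log2 ratio of Cst6 was -0.076, against -0.97 in basal cells, and that of Krt17 was 0.63, so the opposite directions of both were lost there. The basal log2 ratio of Cst6 was 0.12 without cells holding any UMI of Ptprc or Tyrobp and 0.16 without follicle-marked cells, above 0 as in suprabasal cells.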

How the results depend on the processing

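Under 12 alternatives, 3 of them added after the data were seen, 133 of 144 counts of 2-fold genes stayed within 1.5 times their value and 452 of 468 ratios of the 39 called members kept 2-fold and direction. The count of genes higher in RP_UV than in WT_UV in basal cells, 1 as reported, was 5 with no UMI of Ptprc or Tyrobp, 4 with cells thinned before classification, 4 without the deepest 5% of cells, 4 without the highest cell of each gene, 3 as a mean over cells and 2 without follicle-marked cells. The count lower in that comparison, 1, was 2 with all deposited barcodes. Counts of 0 lower genes in suprabasal cells became 1 with no floor on Krt1 and Krt10 (WT_UV and RP_UV, each over WT_Ctrl), 1 without cells of a low mitochondrial share (WT_UV over WT_Ctrl) and 1 without follicle-marked cells (RP_UV over WT_UV). As a mean over cells the suprabasal log2 ratio of Defb6 in WT_UV over WT_Ctrl was -0.17 (1.07 as reported) and that of Krt16 in RP_UV over WT_UV -0.027 (2.50), and without follicle-marked cells basal Defb6 in RP_UV over WT_UV was 0.068 (-2.94). The cause was not tested. Among genes with at least 100 UMIs, 2.17% to 9.22% were 2-fold higher or lower in these comparisons. No paired analysis was possible because each group had 1 library. Depth limits Krt6b and Sprr1b in basal WT_Ctrl cells to upper bounds of 0.698 CPM, and every ratio rests on 1 library a group.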

Other observations

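Keratinocytes between the 2 rules, with at least 10 UMIs of Krt14 and Krt5 and Krt1 and Krt10 from 20% of these up to as many, numbered 56, 17 and 60 in WT_Ctrl, WT_UV and RP_UV and entered no comparison. Cst6 was 4239 (4048 to 4436), 8698 (8339 to 9068) and 36549.6 (36049.5 to 37055) CPM in them, above its level in either class of each library. In RP_UV they also held more Krt17, 9375 (9123 to 9633), more Krt16, 3725 (3567 to 3889), and more Krt6a, 2023 (1907 to 2145), than basal or suprabasal cells. No UMI of Krt6a, Krt6b, Krt16 or Sprr1b was found in those of WT_Ctrl, which allows up to 6.84 CPM. Defb6 was 1268 (1165 to 1378), 7655 (7319 to 8003) and 2811 (2673 to 2953), the highest in WT_UV as in basal cells.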
